A study of Mus musculus with 2 samples.

Results

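Immediate early genes and heat shock genes were followed in the leukocytes of subcutaneous Colon26 tumours, a mouse colon carcinoma line grown under the skin of the right flank. The set comprised 34 listed genes of the 22836 genes in the table, or 0.149%, and all 34 were found by symbol. It held 8 AP-1 and related bZIP factors, 9 other early transcription factors, 11 feedback and early response genes and 6 heat shock genes. Tumours came from 14 wild-type BALB/c mice, whose age is not given in the sources used here. The 3 Control mice were untreated. The 4 minP1 mice received 0.08 µg of minP1, an immunostimulatory peptide of the nucleosome-binding protein HMGN1, on day 9 after inoculation. The 3 PDL1 mice received 200 µg of the anti-PD-L1 antibody 10F.9G2 on days 4 and 8, and the 4 minP1_PDL1 mice received both agents, all by intraperitoneal injection. Tumours of every group were taken on day 10, digested for 60 min with Liberase TM and DNase I and passed over Percoll, so the warm digestion that can raise these genes was shared by the untreated mice too. The labels call the cells intestinal although the tumours were subcutaneous, and nothing in them gives an undigested sample.

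Immediate early genes are transcribed within minutes of a stimulus from factors already present in the cell, such as SRF, its ELK partners and CREB. AP-1 is the dimer of a FOS and a JUN protein that then switches on later genes, and many early products, including the phosphatase DUSP1 and the RNA-binding protein ZFP36, act back on the pathway and shorten its course. Heat shock genes answer to another factor, HSF1, which is released when unfolded proteins occupy the chaperones that hold it. Both programmes are known to rise in single-cell preparations made by warm enzymatic digestion, and AP-1 genes also rise in lymphocytes on antigen or cytokine signals, which is why the question here was whether the heat shock genes moved with the AP-1 genes.

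The promoters of 4 members on which the results turn are shown to set the early response and the heat shock programme side by side. Each is the 250 bases before the annotated start (RefSeq, GRCm38.p6), 5′ to 3′ on the gene's own strand. Fos lies on the plus strand (chr12:85473640-85473889). Dusp1 (chr17:26508473-26508722), Hspa1a (chr17:34972157-34972406) and Hspa1b (chr17:34959239-34959488) lie on the minus strand. In Fos and Dusp1 the capitals mark TGACG, the core of the CREB site, the full site TGACGTCA and the TATA motif TATAAA. In Hspa1a and Hspa1b they mark GAANNTTC, a pair of inverted heat shock factor units.
Fos: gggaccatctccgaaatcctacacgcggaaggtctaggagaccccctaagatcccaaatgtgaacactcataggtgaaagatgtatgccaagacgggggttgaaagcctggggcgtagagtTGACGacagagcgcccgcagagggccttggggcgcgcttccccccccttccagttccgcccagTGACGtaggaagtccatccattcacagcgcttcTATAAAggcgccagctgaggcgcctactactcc
Dusp1: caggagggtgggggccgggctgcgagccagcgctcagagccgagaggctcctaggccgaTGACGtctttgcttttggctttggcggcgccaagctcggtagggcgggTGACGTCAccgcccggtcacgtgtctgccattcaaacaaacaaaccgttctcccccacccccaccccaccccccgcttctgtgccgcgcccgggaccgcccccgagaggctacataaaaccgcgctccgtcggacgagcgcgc
Hspa1a: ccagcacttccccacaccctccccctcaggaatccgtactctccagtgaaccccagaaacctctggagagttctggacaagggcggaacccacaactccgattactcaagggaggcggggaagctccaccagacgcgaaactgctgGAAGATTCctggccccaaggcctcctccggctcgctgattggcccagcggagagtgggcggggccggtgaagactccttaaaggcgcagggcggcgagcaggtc
Hspa1b: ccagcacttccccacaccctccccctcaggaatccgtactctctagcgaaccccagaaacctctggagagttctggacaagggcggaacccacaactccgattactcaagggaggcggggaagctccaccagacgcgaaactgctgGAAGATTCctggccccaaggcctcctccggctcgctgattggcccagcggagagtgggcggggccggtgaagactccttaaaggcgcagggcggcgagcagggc

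The Fos promoter held TGACG with first bases at 129 and 66 before the start and TATAAA at 33. The Dusp1 promoter held the full TGACGTCA at 143, which itself contains TGACG on each strand, and a further TGACG at 191. Hspa1a and Hspa1b each held GAANNTTC at 104, and their 250 bases were identical at 247 positions. A promoter was matched for 28 of the 34 members. The entries not matched were Egr1, Egr3, Myc, Ier2, Hspa8 and Hsp90aa1. On either strand, TGACG was found in 14 of 24 early response members against 17.9% of 32536 distinct promoters of the same length, and in 1 of 4 heat shock members, Dnajb1. TGACGTCA was found in Maff, Dusp1 and Btg2 (1.56% of all promoters). GAANNTTC was found in Fosl2, Jun, Hspa1a and Hspa1b (6.72% of all), and the opposite arrangement TTCNNGAA in Egr2 and Hsph1 (7.19%). The CArG box bound by SRF was found in Egr2, Dusp5 and Zfp36 (1.48%) and the AP-1 site TGANTCA in Zfp36l1 (6.73%). CCAAT was found in all 4 heat shock members matched and 10 of the 24 others (33.8%). A member counted if any of its promoters held the motif, while the percentages are over single promoters, so the measures differ. Egr2 had 5 promoters, Maff 3, and Dnajb1 and Hsph1 2 each. The matches of Egr2, Maff and Dnajb1 were in only some of theirs. These matches describe letters in 1 window and no binding was measured.

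Of 8115 barcodes assigned to mice 7732 were kept, against 7613 cells that the study states under its own filter. The cells were grouped by their expression without the listed genes, and clusters were named by markers. T cells made up 1772 cells, NK cells 1440, monocytes/macrophages 2537, dendritic cells 502, neutrophils 568 and mast cells and basophils 94, while 549 cells with little Ptprc, the gene of CD45, remained despite the CD45 label. Each mouse gave 466 to 724 cells and 26007834 to 51230461 reads, with 5.67% to 6.48% of reads in mitochondrial genes. No barcode was shared between mice. The table holds reads that were not collapsed to molecules, and whether it counted by strand is not given in the sources used here. The labels speak of both 1 hashtagged library and separate runs without placing any mouse in a run. The barcodes of all mice carry 1 run name, so they show no division of the groups between runs, and a run effect was not tested. Nothing says more of the replicates than that each is 1 mouse. Values below are CPM, reads of a gene scaled to a fixed total of reads, summed over the cells of a population in each mouse, a scale on which fewer expressing cells and less RNA per cell cannot be told apart.

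The members were not all high in the same cells. Of the 34 members, 9 had their highest median level over mice in mast cells and basophils, 9 in neutrophils, 6 in the Ptprc-low cells, 5 in NK cells, 3 in monocytes/macrophages, 1 in dendritic cells and 1 in T cells. In neutrophils 6 of 11 feedback genes peaked (Ier5, Dusp1, Zfp36, Btg1, Btg2 and Gadd45b), each overlapping the next population, and in mast cells and basophils Fos, Fosb, Jun and Jund did. That last population reached 10 cells in only 2 mice, and its order is loose for that reason. Of the heat shock genes Hspa1a, Hspa1b and Hspa8 were highest in monocytes/macrophages, where no early response member peaked. Hsp90aa1 and Hsph1 were highest in Ptprc-low cells, as were Egr1, Klf4, Myc and Ier2, and Dnajb1 in mast cells and basophils. In 7 of the 34 orders the highest population did not overlap the next one over mice (Fosb, Jun, Egr3, Nr4a1, Klf4, Ier3 and Dusp2). For Fosb, Jun, Egr3, Nr4a1 and Ier3 the highest population was mast cells and basophils, where 2 mice make a lack of overlap easy to reach. The same count over all genes was not made, so it has no background.

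Fos, the partner that gives AP-1 its DNA-binding strength, had a median of 469 CPM in NK cells (207 to 833 over 14 mice), 873 in T cells (493 to 1349), 1139 in dendritic cells (624 to 1827) and 1409 in monocytes/macrophages (1039 to 1981). Neutrophils stood at 1107 (626 to 1658) and Ptprc-low cells at 2038 (1184 to 2783), and neighbouring populations in this order overlapped. Egr1, a zinc finger factor induced through SRF, had a median of 3072 CPM in Ptprc-low cells (2124 to 3864), against 772 in neutrophils and 162 in T cells, with no overlap between Ptprc-low cells and any of the 5 main leukocyte populations. Dusp2, a nuclear phosphatase of lymphocytes, had its highest level in NK cells (1334, 1098 to 1561), apart from T cells (588, 421 to 612). Hspa1a, the inducible HSP70 gene, was low throughout, with medians of 26 CPM in NK and dendritic cells, 53 in T cells and 85 in monocytes/macrophages, and ranges that all overlapped. Levels in this paragraph are scaled to total reads only, and those of the treatment comparisons also carry TMM scaling (a per-mouse correction for composition).

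**Figure D1:**
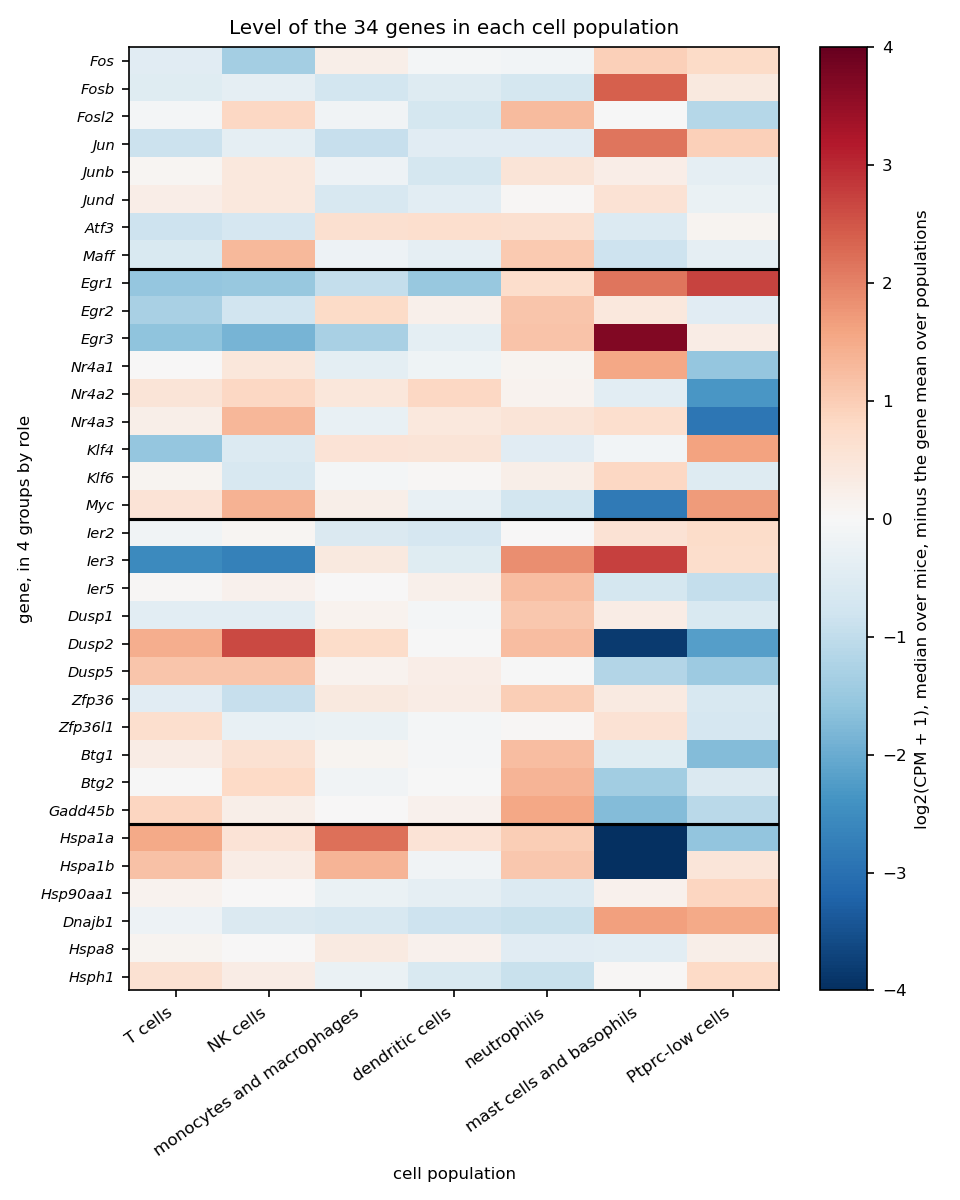
Rows are the 34 genes in 4 role groups separated by lines, columns are 7 populations, and colour is the log2(CPM + 1) median over mice minus that gene's mean over the populations, clipped at 4 in either direction. Egr1 and Klf4 are highest in Ptprc-low cells, Dusp2 in NK cells, and 6 of the 11 feedback genes in neutrophils. The mast cell and basophil column rests on 2 mice.

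Levels also differed between subsets of a population. Left out here are a T cell cluster with Il17a and Trdc among its top genes (140 cells) and a shallow C1q cluster of monocytes/macrophages (254 cells, median 8625 reads). Among T cells Fos had a median of 1375 CPM in the Tcf7 and S1pr1 cluster, whose genes mark naive and memory-like cells, 610 in the Foxp3 cluster of regulatory type and 336 in the Cd8a and Pdcd1 cluster. Among monocytes/macrophages it was 2000 in the Chil3 and Vcan cluster, 1340 in the Arg1 and Pf4 cluster and 909 in the C1q and Cx3cr1 cluster. The lowest mouse of the Chil3 and Vcan cluster (1645) lay above the highest C1q and Cx3cr1 mouse (1590). Hsp90aa1, a cytosolic chaperone of kinases and receptors, ran the other way in T cells, at 889 in the Tcf7 and S1pr1 cluster, 1056 in the Foxp3 cluster and 1216 in the Cd8a and Pdcd1 cluster, with overlapping ranges.

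Treatment was compared over mice with edgeR's quasi-likelihood test in 5 populations and 6 contrasts, 30 in all, with Benjamini-Hochberg adjustment over every gene tested, and a gene passed at an adjusted p under 0.05. Members passed in 2 of the 30, and in both the member was Fos in T cells. The 3 contrasts against Control use the same 3 Control mice, as does the contrast of antibody against no antibody averaged over mice with and without minP1, so they are not separate evidence.

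In T cells Fos was at 533, 493 and 506 CPM in the Control mice, 768, 737, 898 and 736 in the minP1 mice, 872, 973 and 1061 in the PDL1 mice, and 991, 891, 1179 and 1322 in the minP1_PDL1 mice. The 3 Control mice lay below every treated mouse, while the 3 treated groups overlapped. Group means were 510.5 ± 20.4 (SD, n = 3), 785 ± 76.9 (n = 4), 968 ± 94.4 (n = 3) and 1096 ± 192 (n = 4). Fos rose in the combination (log2 change 1.12, SE 0.14, edgeR adjusted p = 0.00383) and with the antibody averaged over both minP1 strata (0.72, SE 0.09, adjusted p = 0.0101). It was the only gene of 12616 to pass in either contrast, 0.00793% of genes tested in each. Against Control, PDL1 alone gave 0.93 (SE 0.14, edgeR adjusted p = 0.0739) and minP1 alone 0.61 (SE 0.13, adjusted p = 1). The interaction of the agents was -0.42 (SE 0.19, unadjusted p = 0.0365, edgeR adjusted p = 1).

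**Figure D2:**
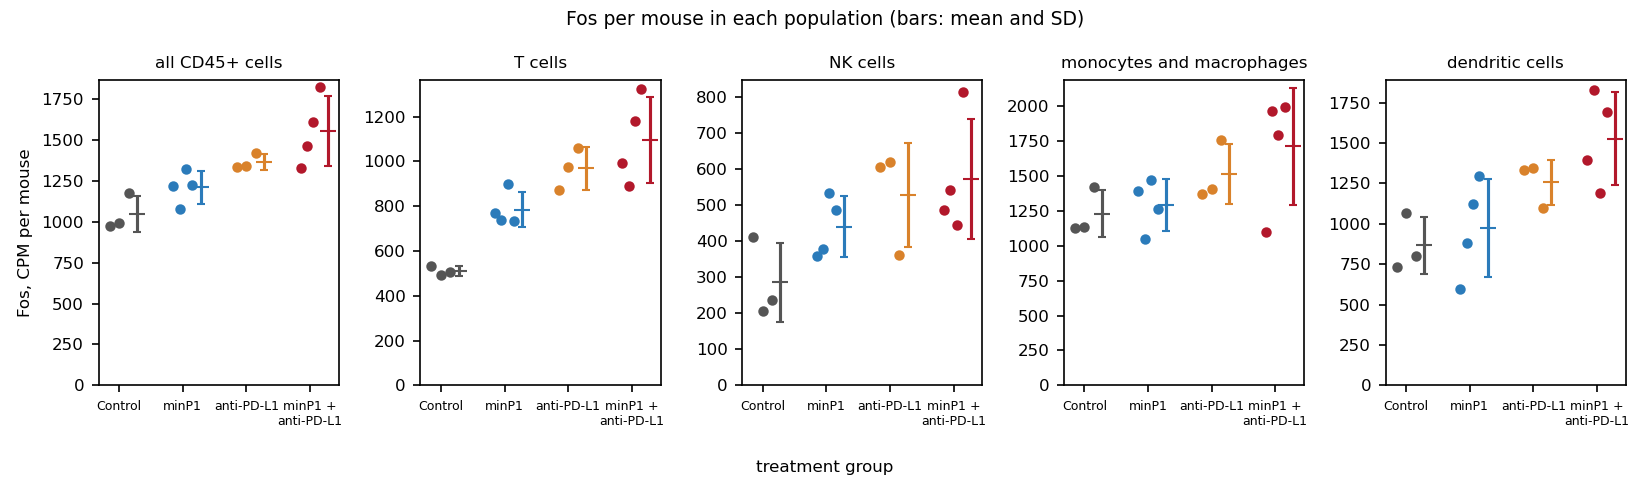
Points are the CPM of Fos in each mouse, in 5 populations and 4 groups, with the mean and SD of each group. In T cells the 3 Control mice lie between 493 and 533 CPM and every treated mouse lies above them. In the other populations the groups overlap more.

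The call for Fos in T cells was not firm. Without Control_2 or Control_3 the adjusted p of the combination was 0.0632 or 0.0608, and that of the averaged antibody effect 0.0667 or 0.0705. The latter was 0.0575 without PDL1_3. The size moved little, from 1.01 to 1.21 for the combination over all 14 fits that left out 1 mouse. Both calls were also lost with no mitochondrial filter on cells (adjusted p 0.210 and 0.141), with the listed genes used for clustering (0.697 and 0.614) and in T cells without the Cd8a and Pdcd1 cluster (0.159 and 0.159), an alternative added after the data had been seen. The averaged effect was lost at clustering resolution 0.5 (0.156) and without cells of high doublet score (0.0564). PDL1 alone passed with no filter on low counts (0.0159), in DESeq2 (1.24e-06) and without minP1_PDL1_2 or minP1_PDL1_4 (0.0254 and 0.0309).

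The estimates for Fos in subsets of T cells had wide errors, and no difference between subsets was tested. A further T cell cluster, with Il17a and Trdc among its top genes (140 cells), was not fitted. In the Foxp3 cluster the combination gave a log2 change of 1.41 (SE 0.31, edgeR adjusted p = 0.572), in the Tcf7 and S1pr1 cluster 0.45 (SE 0.30, adjusted p = 1) and in the Cd8a and Pdcd1 cluster 0.59 (SE 0.46, adjusted p = 1). With the antibody averaged over both strata the values were 1.03, 0.46 and -0.03. Against Control, PDL1 alone gave -0.05 in the Cd8a and Pdcd1 cluster, and minP1 alone -0.06 in the Tcf7 and S1pr1 cluster. No member passed in any of these clusters. The Cd8a and Pdcd1 cluster, where Fos was lowest, made up 6.63% to 31.2% of the T cells of a mouse, with 16.3% to 20.3% in Control.

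Reads of monocyte and macrophage markers in T cells were lowest in Control, as Fos was. The sum of the 16 markers in T cells was 763 to 869 CPM in Control, 881 to 1216 in minP1, 1004 to 1369 in PDL1 and 889 to 1281 in minP1_PDL1, so Control lay below every treated mouse here as well. Among the minP1 mice, minP1_3 had the most Fos and the lowest sum (881). In PDL1 the sum and Fos followed the same order of mice. No correlation of the sum with Fos was computed. Most of it was Ccr2 (333 to 662 CPM) and Ly6c2 (127 to 394), which some T cells also express. Chil3, a monocyte gene, was at 0.00 to 2.40 CPM and the macrophage gene C1qa at 2.65 to 23.2. In the monocytes/macrophages themselves the sum was 10994 to 16537 CPM. Their part in the Fos result was not tested. Summed neutrophil markers in T cells were at 248 to 294 CPM in Control, 138 to 301.1 in minP1, 119 to 191 in PDL1 and 117 to 213 in minP1_PDL1, so minP1 overlapped Control and the mice given antibody lay below it, and the T cells' mitochondrial share overlapped between groups (5.99% to 6.93%).

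Other T cell members stood out by size without passing. Nr4a2, an orphan nuclear receptor induced by T cell receptor signalling, was at 879.5, 571 and 571 CPM in Control, 353, 396, 488 and 406 in minP1, 550.5, 396 and 294 in PDL1, and 267, 385, 309.5 and 253 in minP1_PDL1. Every mouse of the 3 treated groups lay below every Control mouse. The combination gave a log2 change of -1.13 (SE 0.21, edgeR adjusted p = 0.288, DESeq2 adjusted p = 0.000144), but 0.07 with no mitochondrial filter on cells, a setting that also changes which cells cluster as T cells. Zfp36, which speeds the decay of cytokine mRNAs, was at 548, 459 and 418 CPM in Control against 720.0, 594.5, 841 and 767 in the combination, without overlap. Its averaged antibody effect was 0.47 (SE 0.11, adjusted p = 0.716). Egr1 gave 0.64 (SE 0.17), Jun 0.51 (SE 0.19) and Dusp1 0.29 (SE 0.10) in the same contrast.

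Beside the 34 members, the share of all T cell genes at an unadjusted p under 0.05 gives the background. For minP1 against Control 3 members were under 0.05 (3.80% of genes), for PDL1 6 (5.09%), for the combination 11 (4.95%), for the averaged antibody effect 10 (5.14%), for the averaged minP1 effect 2 (4.45%) and for the interaction 1 (4.80%). In the 4 T cell contrasts other than the combination and the averaged antibody effect, 0 members passed in edgeR and 0% of genes did. DESeq2 passed 1 member for PDL1 (Fos), 3 for the combination (Fos, Nr4a2 and Zfp36) and 2 for the averaged antibody effect (Fos and Zfp36), and 0 for the others. Of all T cell genes tested DESeq2 passed 0% for minP1, 0.0238% for PDL1, 0.0793% for the combination, 0.119% for the averaged antibody effect, 0.00793% for the averaged minP1 effect and 0% for the interaction. With the antibody averaged, 26 of 34 had a log2 change above 0 against 49.5% of all genes.

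In NK cells Jun, whose protein pairs with FOS in AP-1, was at 249.6, 264 and 385 CPM in Control, 320.4, 428, 487 and 479.7 in minP1, 670.1, 424 and 541 in PDL1 and 355, 559, 509.8 and 600.4 in minP1_PDL1. All 3 PDL1 mice lay above Control, and 1 combination mouse overlapped it. The averaged antibody effect was 0.56 for Jun (SE 0.15), 0.64 for Fos (SE 0.19), 0.49 for Fosb, another FOS family gene (SE 0.14), and 0.37 for the nuclear receptor gene Nr4a1 (SE 0.10), each at an edgeR adjusted p of 0.498. Fos was at 412, 208 and 238 CPM in Control and 486, 544, 447 and 816 in the combination, without overlap.

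In NK cells 0 members passed in the 6 edgeR contrasts, as did 0% of genes. Members under an unadjusted p of 0.05 numbered 2 for minP1 (3.28% of genes), 8 for PDL1 (5.28%), 9 for the combination (5.69%), 12 for the averaged antibody effect (6.67%), 0 for the averaged minP1 effect (4.84%) and 1 for the interaction (4.64%). DESeq2 passed Jun for the combination, Fosb and Jun for the averaged antibody effect and 0 members in the others. Over all genes tested there, DESeq2 passed 0.0166% for minP1, 0.0581% for PDL1, 0.0498% for the combination, 0.265% for the averaged antibody effect, 0.0083% for the averaged minP1 effect and 0.0083% for the interaction. With the antibody averaged, 28 of 34 members were above 0 against 48.5% of genes, among them all 8 AP-1 members. T cell markers summed to 1007 to 1362 CPM in the NK cells of Control and 1514 to 1589 in PDL1. They were at 1066 to 1510 in minP1 and 1234 to 1495 in minP1_PDL1, both overlapping Control. Monocyte and macrophage markers summed to 1215 to 1377 in Control and 1594 to 1788 in PDL1. For these, minP1 (1275 to 1803) and minP1_PDL1 (1304 to 2354) again overlapped Control. The part of these reads was not tested.

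In monocytes/macrophages Egr1 led. It was at 146, 251.5 and 226 CPM in Control, 232, 167, 238.5 and 217 in minP1, 239.9, 244 and 275 in PDL1, and 311.5, 364, 411.5 and 302.04 in minP1_PDL1. All 4 combination mice lay above all 10 others. The combination gave 0.74 (SE 0.17, edgeR adjusted p = 0.404) and the averaged antibody effect 0.50 (SE 0.12, adjusted p = 0.421). Fos gave 0.36 in the latter contrast (SE 0.12), and Ier3, a survival gene, 0.39 (SE 0.15), with all combination mice above Control for Ier3.

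Again 0 members passed in edgeR in any of the 6 contrasts in monocytes/macrophages, nor did any other gene (0%). Unadjusted p under 0.05 was reached by 1 member for minP1 (4.28% of genes), 2 for PDL1 (5.32%), 6 for the combination (7.22%), 5 for the averaged antibody effect (7.04%), 0 for the averaged minP1 effect (5.68%) and 6 for the interaction (5.34%). DESeq2 passed Egr1 for the combination and for the averaged antibody effect, and 0 members otherwise. Over all genes tested there, DESeq2 passed 0.0199% for minP1, 0.0266% for PDL1, 0.246% for the combination, 0.246% for the averaged antibody effect, 0.133% for the averaged minP1 effect and 0.0133% for the interaction. With PDL1 alone only 1 of 8 AP-1 members was above 0, and with the antibody averaged 7 of 8 were. In that averaged contrast 23 of 34 members were above 0, against 50.6% of genes.

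In dendritic cells Jun was at 238, 220.4 and 240.0 CPM in Control, 294, 300.9, 521 and 407 in minP1, 437, 381 and 460.2 in PDL1, and 425, 693, 591 and 464 in minP1_PDL1. The 3 Control mice lay below all 11 treated mice. The combination gave 1.23 (SE 0.21, edgeR adjusted p = 0.270), and the averaged antibody effect was 0.70 (SE 0.14, adjusted p = 0.754). Fos gave 0.60 (SE 0.15), Dusp1 0.60 (SE 0.17) and Egr1 0.79 (SE 0.25) in the averaged contrast. Ier2, a small early response gene, was at 154 to 242 CPM in the 7 mice without antibody and 245 to 306.9 in the 7 with it, with no overlap. NK markers in dendritic cells summed to 1447 to 1681 CPM in Control and 717 to 1230 in PDL1. Monocyte and macrophage markers summed to 4930 to 6162 and 4193 to 4869. Both sums overlapped Control in minP1 (1135 to 2300 and 3842 to 5620) and in minP1_PDL1 (525 to 1781 and 3028 to 6275). Their part in these changes was not tested.

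In dendritic cells too, 0 members passed in the 6 edgeR contrasts (0% of genes), from 27 to 53 cells per mouse. Under an unadjusted p of 0.05 were 1 member for minP1 (4.14% of genes), 11 for PDL1 (4.99%), 5 for the combination (4.74%), 11 for the averaged antibody effect (5.04%), 1 for the averaged minP1 effect (4.97%) and 0 for the interaction (4.1%). DESeq2 passed Jun for the combination, Fos and Jun for the averaged antibody effect and 0 members otherwise. Over all genes tested there, DESeq2 passed 0.0418% for minP1, 0.0334% for PDL1, 0.109% for the combination, 0.109% for the averaged antibody effect, 0.0334% for the averaged minP1 effect and 0.0167% for the interaction. The averaged antibody effect was above 0 for 26 of 34 members, against 50% of genes.

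Summed over all CD45+ cells, Fos was at 974 to 1325 CPM in the 7 mice without antibody and 1330 to 1825 in the 7 with it, and these did not overlap. The averaged antibody effect was 0.37 for Fos (SE 0.07, edgeR adjusted p = 0.179) and 0.43 for Dusp1 (SE 0.10, adjusted p = 0.225), and DESeq2 passed both. Summed neutrophil markers did not overlap either, at 640 to 1236 CPM without antibody and 1255 to 2085 with it, and neutrophils were where Dusp1 was highest. The mitochondrial share of reads was 6.19% to 6.47% in Control, 5.998% to 6.48% in minP1, 5.89% to 6.39% in PDL1 and 5.67% to 6.12% in minP1_PDL1, the last without overlap with Control. The part of either in the result was not tested. Egr1 gave -0.63 for minP1 against Control (SE 0.27, edgeR adjusted p = 0.704). The Ptprc-low cells, with the highest Egr1, made up 8.50% to 13.8% of Control cells and 3.45% to 7.45% of minP1 cells, and without the non-immune clusters the Egr1 value was 0.16.

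Over all CD45+ cells 0 members and 0% of genes passed in the 6 edgeR contrasts. Members under an unadjusted p of 0.05 numbered 1 for minP1 (6.94% of genes), 5 for PDL1 (6.58%), 6 for the combination (10.4%), 11 for the averaged antibody effect (8.32%), 2 for the averaged minP1 effect (6.64%) and 1 for the interaction (4.49%). DESeq2 passed Dusp1 and Fos for the combination and for the averaged antibody effect, and 0 members otherwise. Over all genes tested there, DESeq2 passed 0.206% for minP1, 0.261% for PDL1, 0.782% for the combination, 0.684% for the averaged antibody effect, 0.0978% for the averaged minP1 effect and 0.0543% for the interaction. With the antibody averaged, 27 of 34 members were above 0 against 49.7% of genes, with all 8 AP-1 and all 11 feedback members among them.

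Heat shock and AP-1 members were set side by side by population. With the antibody averaged, 5 of 6 were above 0 in T cells, 3 in NK cells, 2 among monocytes/macrophages and 4 in dendritic cells, with median log2 changes of 0.39, -0.08, -0.07 and 0.11. The AP-1 members stood at 6, 8, 7 and 7 of 8, with medians of 0.24, 0.27, 0.08 and 0.34, beside medians over all genes of -0.00, -0.01, 0.00 and 0.00. The feedback members stood at 9, 10, 10 and 9 of 11 and the other early factors at 6, 7, 4 and 6 of 9. None of the 6 heat shock members passed in any of the 30 contrasts, by edgeR or by DESeq2. Whether heat shock and AP-1 members differ from each other was not tested.

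**Figure D3:**
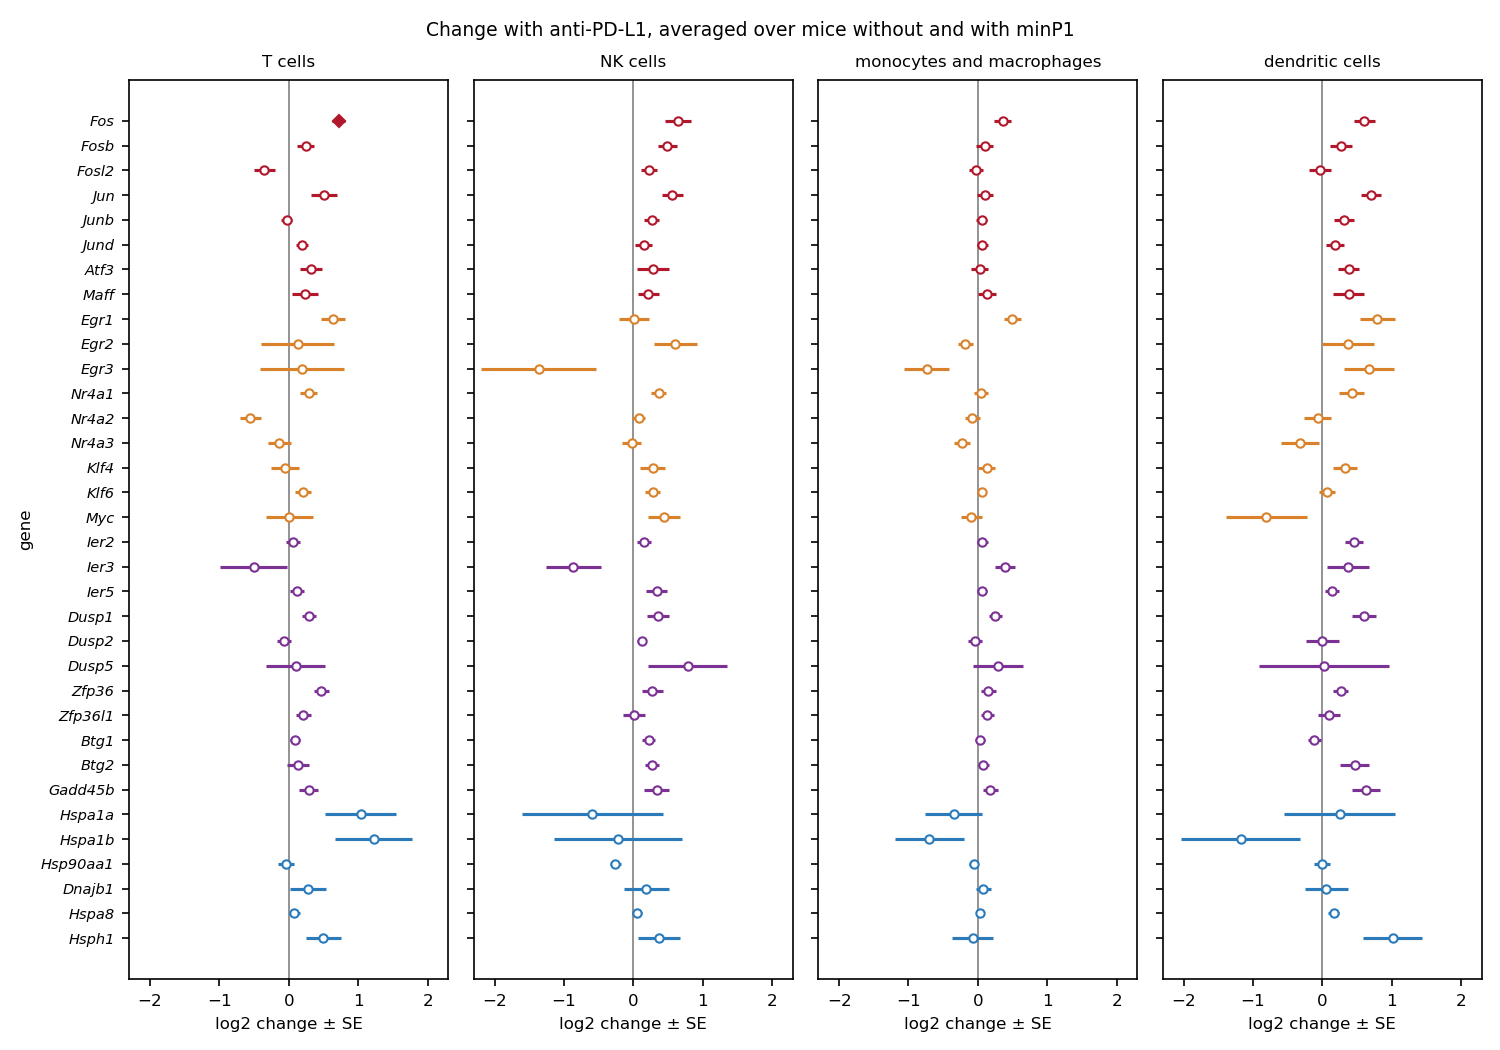
Points are the log2 change and bars its SE for each of the 34 genes for the antibody averaged over both minP1 strata, in T cells, NK cells, monocytes/macrophages and dendritic cells, coloured by role (red AP-1, orange other early factors, purple feedback, blue heat shock). Fos in T cells (0.72) carries the filled diamond of an adjusted p under 0.05, and no other gene does. Of the 8 AP-1 genes 6, 8, 7 and 7 lie above 0 in the 4 populations, and of the 6 heat shock genes 5, 3, 2 and 4.

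Hsp90aa1 in NK cells had the smallest p of the heat shock members in any averaged antibody contrast, and it was lower. It was at 1253, 1199 and 1143 CPM in Control, 919, 1153, 972 and 1139.7 in minP1, 851.5, 999 and 915 in PDL1, and 1033.5, 988, 933 and 793 in minP1_PDL1. Every mouse given antibody lay below every Control mouse. The averaged antibody effect was -0.26 (SE 0.08, edgeR adjusted p = 0.518), in the cells where Jun gave 0.56. In T cells Hsp90aa1 gave -0.05 (SE 0.12), in monocytes/macrophages -0.06 (SE 0.06) and in dendritic cells -0.01 (SE 0.11). Hspa8, the constitutive HSP70, gave 0.02 to 0.16 over these 4 populations.

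The inducible HSP70 genes varied widely between mice of 1 group. In T cells Hspa1a was at 11.5, 75.9 and 8.1 CPM in Control, 51.2, 57.5, 10.9 and 30.1 in minP1, 66.0, 30.3 and 149.8 in PDL1, and 54.6, 92.6, 21.7 and 70.2 in minP1_PDL1. The groups overlapped throughout. The averaged antibody effect was 1.03 for Hspa1a (SE 0.52) and 1.22 for Hspa1b (SE 0.56, edgeR adjusted p = 0.941), and Hspa1b gave -0.70 when the listed genes were used for clustering. Without Control_2 Hspa1a gave 1.87, and without PDL1_3 Hspa1a gave 0.64 and Hspa1b 0.78. In NK cells Hspa1a ran from 0.3 to 128 CPM within Control and from 3.5 to 401 within the combination. Their reads came from few cells. A read of Hspa1a was found in 4.06% of T cells (2.83% after thinning to 10000 reads) and 17.1% of monocytes/macrophages (11.1% after thinning), at median depths of 20476.5 and 75428 reads. A read of Fos was found in 65.9% of T cells (59.1% after thinning). Cells with fewer than 10000 reads were left out of the thinned shares. Whether the reads of Hspa1a were gathered in fewer cells than its low detection alone implies was not tested. No population is known to lack Hspa1a, so its shares of cells have no background of free RNA beside them.

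Hspa1a and Hspa1b encode nearly the same protein, and 1350 of the 2868 windows of 100 bases in the Hspa1a transcript (47.07%, GENCODE M21) also occur in Hspa1b, so the division of reads between them is uncertain. Dnajb1, the HSP40 partner of HSP70, was at 88.6, 113.6 and 144.1 CPM in the T cells of Control and 135.7, 184.1, 66.2 and 98.4 in the combination, with overlap. Hsph1, a nucleotide exchange factor of HSP70, was at 46.3, 23.5 and 60.4 CPM in Control and 72.5, 82.8, 67.4 and 115.2 in the combination, without overlap. The log2 change of Hsph1 there was 0.98 (SE 0.35, edgeR adjusted p = 0.971). In dendritic cells its averaged antibody effect was 1.01 (SE 0.43, adjusted p = 0.963).

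**Figure D4:**
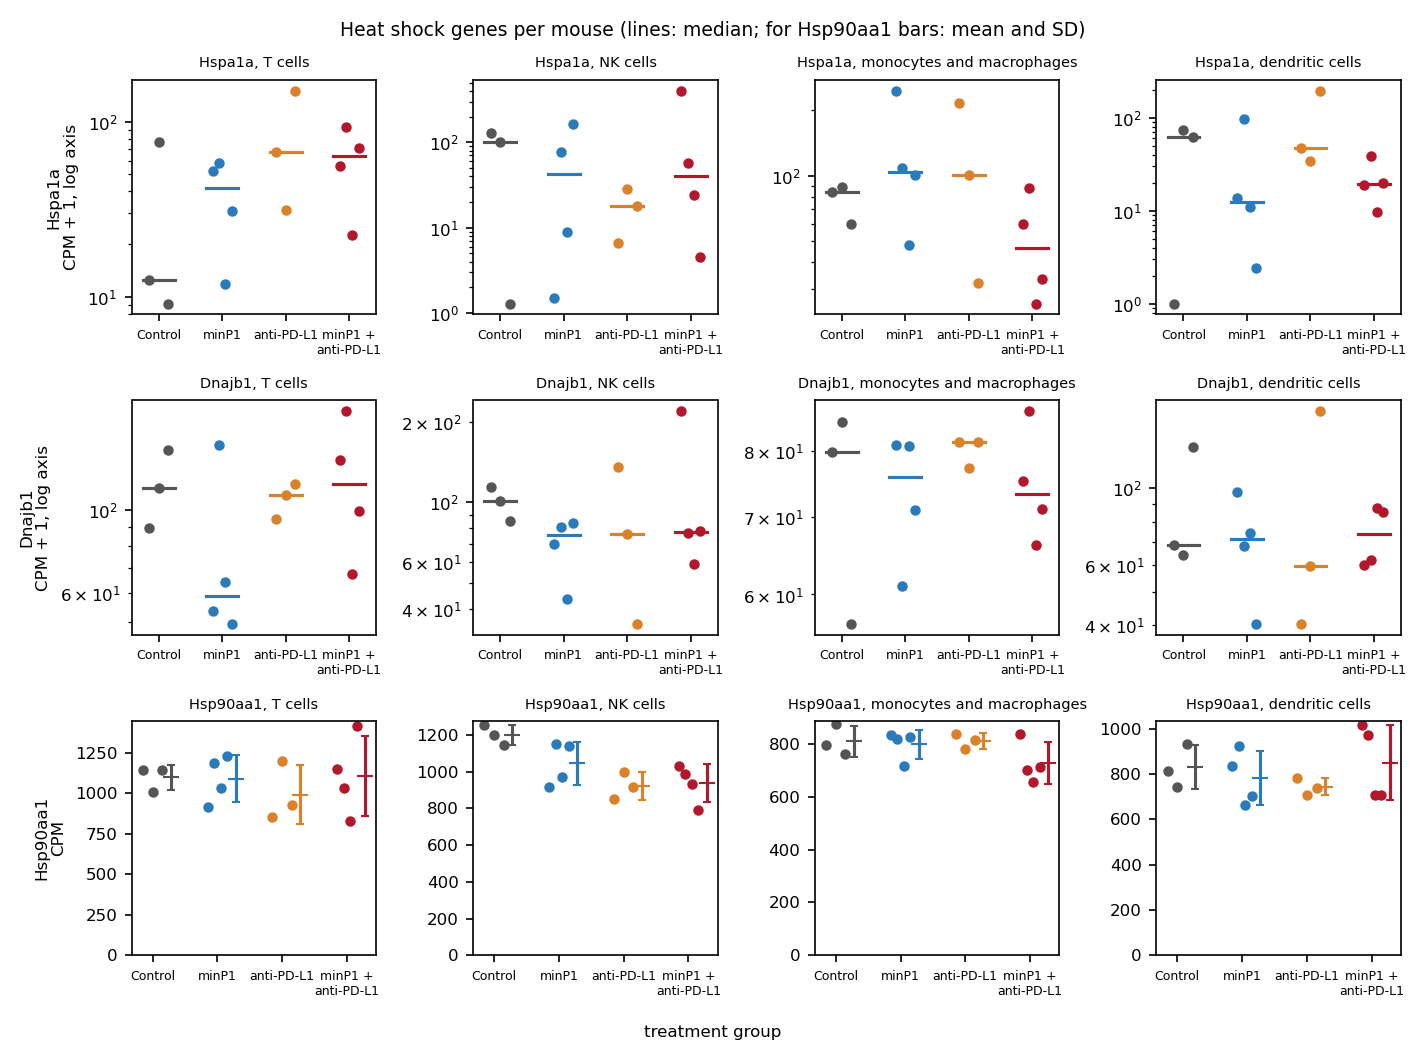
Points are mice, in 4 groups and 4 populations. Hspa1a and Dnajb1 are drawn as CPM + 1 on a log axis with a line at the median, and Hsp90aa1 as CPM with mean and SD. Hspa1a spans 0.3 to 401 CPM within NK cells, while Hsp90aa1 in NK cells is at 1143 to 1253 CPM in Control and below that in every mouse given antibody.

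Other genes of the same pathways were counted from 3 further lists, and in the averaged antibody contrast 0 of their genes passed edgeR in any population. Of 18 genes upstream of the immediate early response (SRF and its partners, MAP kinases and their targets), 8 were above 0 in T cells, 9 in NK cells, 8 among monocytes/macrophages and 10 in dendritic cells. Of 20 other chaperone genes, 6 of 19 tested were above 0 in T cells, 2 of 20 in NK cells, 2 of 20 among monocytes/macrophages and 11 of 19 in dendritic cells. The medians of these chaperones were -0.07, -0.22, -0.09 and 0.11. In NK cells Hspa4 gave -0.46 (SE 0.14), the mitochondrial chaperonin gene Hspd1 -0.48 (SE 0.15) and Hsp90ab1 -0.22 (SE 0.08). In monocytes/macrophages Hspb1 gave -3.49 (SE 0.95, edgeR adjusted p = 0.472) and Hspd1 -0.38 (SE 0.13).

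The third list held 30 other genes known to rise on dissociation, of which 20 of 30 were above 0 in T cells, 19 of 29 in NK cells, 22 of 30 among monocytes/macrophages and 20 of 29 in dendritic cells. Cd69, an early activation marker of lymphocytes, gave 0.33 in T cells (SE 0.09) and 0.65 in NK cells (SE 0.18). Ppp1r15a, which restarts translation after stress, gave 0.41 in T cells (SE 0.13) and 0.51 in dendritic cells (SE 0.21). Nfkbia, the inhibitor of NF-kB, gave 0.31 in NK cells (SE 0.08), and Odc1, the first enzyme of polyamine synthesis, -0.35 in monocytes/macrophages (SE 0.11).

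Whether heat shock genes moved with AP-1 genes was first asked over the 14 mice, on log2(CPM + 1), for 13 fixed pairs in each of 4 populations, 52 in all, with two-sided permutation tests (100000 permutations) and Benjamini-Hochberg adjustment over the 52. Of the 9 pairs of Fos, Jun or Egr1 with Hspa1a, Dnajb1 or Hsp90aa1, 4 were positive in T cells, 2 in NK cells, 2 among monocytes/macrophages and 3 in dendritic cells. The median r was -0.05, -0.22, -0.47 and -0.12. Of these pairs no positive one passed. Hspa1b, Hspa8, Hsph1 and the other AP-1 members were in no pair, so they were not tested over mice in this way. The 8 pairs of Fos with Jun or Egr1 were all positive, with r from 0.25 to 0.73.

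The pairs of an AP-1 gene with a heat shock gene that passed were negative. In NK cells Jun and Hsp90aa1 had r = -0.73 (permutation p = 0.00324, adjusted 0.0421) and rho = -0.75 (p = 0.00283, adjusted 0.0449). In monocytes/macrophages Jun and Hsp90aa1 had r = -0.82 (permutation p = 0.00042, adjusted 0.0218) and rho = -0.72 (p = 0.00491, adjusted 0.0511), and Fos and Hsp90aa1 r = -0.73 (permutation p = 0.00315, adjusted 0.0421) and rho = -0.77 (p = 0.00173, adjusted 0.0449). Without the 2 mice farthest from the median of the first gene r was -0.53, -0.62 and -0.62 at unadjusted permutation p = 0.0792, 0.0316 and 0.0275, and none passed after adjustment. The cause of the lost calls was not tested. After centring on the treatment groups r was -0.36, -0.75 and -0.70, and none passed. In monocytes/macrophages without cells of high doublet score the values were -0.04 for Jun and 0.05 for Fos, so the relation did not hold there. That setting drops 78.3% of the Arg1 and Pf4 cluster and 49.2% of the C1q and Cx3cr1 cluster, against 20.5% of the Chil3 and Vcan cluster. It thus also changes which cells make up the population, and the part of that change was not tested.

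Of the 8 pairs of early genes 1 passed by r. Fos and Jun in dendritic cells had r = 0.73 (permutation p = 0.00288, adjusted 0.0421) and rho = 0.69 (p = 0.00861, adjusted 0.0746), with r = 0.68 without the 2 farthest mice, which did not pass, and 0.83 without cells of high doublet score, which did. In T cells Fos and Jun had r = 0.69 (permutation p = 0.00606, adjusted 0.0525) and rho = 0.75 (p = 0.00345, adjusted 0.0449), and Fos and Egr1 r = 0.64 (p = 0.0131, adjusted 0.0764) and rho = 0.78 (p = 0.00179, adjusted 0.0449). Centred on the groups these 3 were 0.43, 0.48 and 0.35, and none passed. Among heat shock genes Hspa1a and Hsp90aa1 in NK cells had r = 0.52 (permutation p = 0.0541, adjusted 0.201) and rho = 0.61 (p = 0.0216, adjusted 0.140), with r = 0.85 once centred on the groups (adjusted 0.0052) and 0.28 without cells of high doublet score.

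The question was then put to cells within each mouse, with Spearman's rho between members over the cells of a population, as a description with no test, since the cells share a library and their depths differ. The median rho of AP-1 with AP-1 members was 0.13 in T cells, 0.12 in NK cells, 0.18 among monocytes/macrophages, 0.14 in dendritic cells (13 mice) and 0.09 in neutrophils (10 mice). Among the heat shock members it was 0.13, 0.13, 0.19, 0.16 and 0.14. Between the programmes it was 0.02, 0.02, 0.05, 0.09 and 0.09. With cells thinned to 10000 reads, and those with fewer left out, these last values were 0.01, 0.01, 0.01, 0.04 (11 mice) and 0.07 (8 mice). The thinned values within AP-1 were 0.12, 0.12, 0.14, 0.11 and 0.06, and among the heat shock members 0.12, 0.13, 0.15, 0.13 and 0.12. In T cells without thinning the highest mouse reached 0.05 between the programmes, and the lowest mouse had 0.08 within AP-1. In neutrophils the value between programmes was as high as that within AP-1, and without cells of high doublet score (6 mice) they were 0.03 and 0.04.

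**Figure D5:**
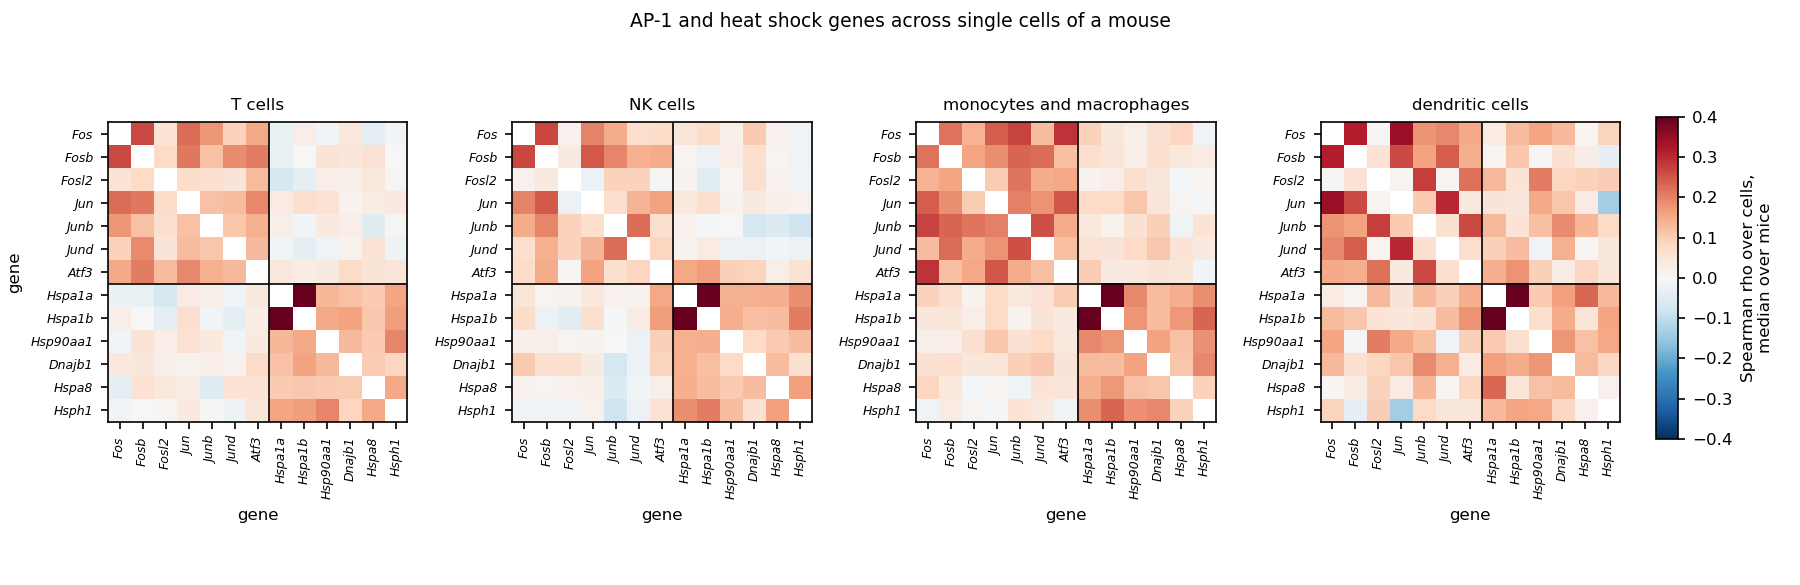
Colour is the median over mice of Spearman's rho over cells between 7 AP-1 and 6 heat shock members, clipped at 0.4. The panels are T cells, NK cells, monocytes/macrophages and dendritic cells. Colour gathers in the AP-1 block and the heat shock block. The block between them is pale in T and NK cells (median 0.02 in each) and less so in dendritic cells (0.09).

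Over single cells the member with the highest median rho to Fos was Zfp36 in T cells and in monocytes/macrophages, Fosb in NK cells, Dusp1 in dendritic cells and Klf4 in neutrophils. Fos with Zfp36 had a median rho of 0.29 in T cells, 0.24 in NK cells, 0.47 among monocytes/macrophages and 0.27 in dendritic cells, and Fos with Dusp1 0.24, 0.21, 0.47 and 0.37. In monocytes/macrophages every mouse was at 0.33 or above for both pairs. Fos with Jun stood at 0.22, 0.20, 0.24 and 0.34. Fos with Hspa1a was at -0.03, 0.05, 0.09 and 0.03, and Fos with Hsp90aa1 at -0.01, 0.02, 0.02 and 0.16. Fos with Nr4a2 was at -0.05 in T cells and 0.13 in monocytes/macrophages, and Fos with Egr1 at 0.04 in T cells and 0.21 in monocytes/macrophages.

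Among the heat shock genes Hspa1a and Hspa1b were the closest, at 0.54 in T cells, 0.57 in NK cells, 0.48 among monocytes/macrophages and 0.40 in dendritic cells, a value that shared reads can raise. Hspa1a with Hsp90aa1 was at 0.13, 0.14, 0.19 and 0.10 in these populations. Neutrophils were apart for Jun. Jun with Hsp90aa1 had a median of 0.34 there, with Hspa8 0.38 and with Hspa1a 0.24, against 0.06, 0.03 and 0.03 in T cells, over 10 mice with ranges of -0.16 to 0.45 and 0.08 to 0.55 for the pairs with Hsp90aa1 and Hspa1a. Of the neutrophils, 34.9% had a high doublet score. Monocyte and macrophage markers in neutrophils summed to 5542, 6182 and 5546 CPM in the Control mice. With 12, 19 and 24 neutrophils, under the 30 needed, these Control mice are not among the 10 mice correlated. Between the programmes the median rho was 0.09 over all neutrophils (10 mice) and 0.03 without cells of high doublet score (6 mice). The part of cells of high doublet score and the difference between populations were not tested.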

How the data were processed

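Single-cell RNA of CD45+ tumour cells was captured on BD Rhapsody with sample hashtags. The deposited table holds raw read counts per gene and cell, whole numbers made by the authors and not collapsed to molecules (median of 10 reads per entry above 0). The submitters' processing notes name cutadapt 2.10, Bowtie2 2.3.4.1, Seurat 2.3.4 and mm10. Of the table's columns, 147 (doublets or cells with no hashtag) were not used. Cells with over 25% mitochondrial reads were left out, which removed 383 of 8115 cells. Cells were clustered in scanpy 1.11.5 (2000 variable genes without the listed genes, 30 components, Leiden resolution 1) and named where at least 3 markers were among the top 50 genes. The doublet score was not used to remove cells, and 26.2% of cells scored over 0.5.

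Counts were summed per mouse and population (at least 10 cells) and tested in edgeR 4.0.16 (TMM, quasi-likelihood, all 4 groups in 1 fit), with DESeq2 1.42.0 as an alternative. Correlations used log2(CPM + 1). The tests were checked on simulated data. All 34 members are named, and of the 3 other lists at most 3 genes each by smallest p. The members and lists were chosen with earlier results of these data known. Alternatives covered scaling, filters, clustering, doublet score, the replicate block and leaving out each mouse. Total reads per mouse limit the precision, and p-values measure only the spread between these mice.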

Additional observations from a re-analysis of the deposited data

Results flagged for a closer look

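Of 80 groups of 4 mice examined, 7 held a mouse far from the other 3. The cut used gives about 1 in 20 groups for independent, normally spread values. The groups share mice across genes and populations, and normal spread was not checked, so 1 in 20 is not a known chance rate for them. In the combination mouse minP1_PDL1_1, Hspa1a in NK cells was at 401.3 CPM against 3.5 to 56.0 in the other 3, Dnajb1 in NK cells at 218.7 against 58.0 to 77.5, and Egr1 over all CD45+ cells at 1266.2 against 573.6 to 690.5. In the mouse minP1_2, Hspa1a in dendritic cells was at 96.5 CPM against 1.4 to 12.9, Dnajb1 in T cells at 148.9 against 48.3 to 63.0, and Dusp1 in T cells at 872.3 against 670.0 to 692.7. In the mouse minP1_3, Hsp90aa1 in monocytes and macrophages was at 718.2 CPM against 817.9 to 835.6. Of the 7, 5 concern heat shock genes. How many of the 80 groups were of heat shock genes was not counted, so this number cannot show an excess.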

How the results depend on the processing

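Counts of members passed in edgeR were 0 in 28 of 30 contrasts and 1 in 2. DESeq2 passed 2 members over all CD45+ cells for the combination and 2 for the averaged antibody effect, 1, 3 and 2 in T cells for PDL1, the combination and the averaged effect, 1 and 2 in NK cells, 1 and 1 in monocytes and macrophages, and 1 and 2 in dendritic cells for the last pair of contrasts, beside 0.782% and 0.684%, 0.0238%, 0.0793% and 0.119%, 0.0498% and 0.265%, 0.246% and 0.246%, and 0.109% and 0.109% of all genes tested. With no filter on low counts 1 member passed in T cells for PDL1. Leaving out 1 mouse at a time gave 0 to 1 members in T cells for PDL1, the combination and the averaged effect. The count in T cells was 0 for both the combination and the averaged effect with no mitochondrial filter, with listed genes among the variable genes, and without the Cd8a and Pdcd1 cluster (added after seeing the data), and 0 for the averaged effect without cells of high doublet score or at resolution 0.5. With the replicate number as a block, Fos in T cells kept its calls at adjusted p 0.0246 and 0.0166 (log2 change 1.07 for the combination). The labels do not say that numbers pair mice, and same-numbered mice did not deviate together (median correlation 0.0158 over all CD45+ cells).

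Signs turned for Fos in T cells for minP1 in the Tcf7 and S1pr1 cluster (-0.0598), for PDL1 (-0.0501) and the averaged effect (-0.0252) in the Cd8a and Pdcd1 cluster, for Nr4a2 in the combination with no mitochondrial filter (0.0713), for Hspa1b in T cells with listed genes among the variable genes (-0.70), for Egr1 over all CD45+ cells for minP1 without non-immune clusters (0.16), and for Fos with Hsp90aa1 in monocytes and macrophages without cells of high doublet score (r = 0.0455). Of the mouse correlations between AP-1 and heat shock genes, 1 passed in NK cells and 0 did without the 2 farthest mice, without TMM or without high doublet scores (Jun with Hsp90aa1 at r -0.53, -0.70 and -0.67 against -0.73). In monocytes and macrophages 2 passed, against 0 centred, 0 without the 2 farthest mice, 1 without TMM and 0 without high doublet scores. For early genes in dendritic cells 1 passed, against 0 centred, 0 without the 2 farthest mice, 0 without TMM (r 0.73, as before) and 1 without high doublet scores. The median rho over cells between programmes was 0.0123 in monocytes and macrophages after thinning and 0.0284 in neutrophils without high doublet scores. Within AP-1 it was 0.1441 and 0.0447 in these settings. The cause was not tested in any of these. Depth limits genes read in few cells, such as Hspa1a in 4.06% and Egr3 in 3.61% of T cells and Dusp5 in 8.51% of monocytes and macrophages.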
